A study of Mus musculus with 4 samples.

Results

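The DNA damage repair genes examined here were 41 genes of Fanconi anemia, homologous recombination, end joining, mismatch repair, base and nucleotide excision repair, and the checkpoint that senses damaged DNA. They were chosen by name from a list of pathways, and each was read on every array probe that carried its symbol, with 1 value per gene taken from its brightest probe. These 41 genes, of 28089 names on the array, had 73 probes. Of the 41 genes, 38 were bright enough to test. *Fancf*, *Ercc2* and *Bard1* were not well above background on both arrays of either genotype and were not tested. Of the 38, 36 were well above background on all 4 arrays, and *Rad50* and *Rad51c* were dim on 1 array.

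The study deleted *Meis1*, a homeodomain transcription factor of hematopoietic stem cells (HSCs), and profiled LSK cells, bone marrow cells without lineage markers but with Sca-1 and c-Kit, among which HSCs and early progenitors are found. Meis1-KO cells came from Mx1-Cre+ Meis1 fl/fl mice and Meis1-WT cells from Cre-negative Meis1 fl/fl mice, so both genotypes carried the floxed allele, and the labels give a C57BL/6J background for both. Mice of 4 to 8 weeks of age received 4 intraperitoneal injections of poly(I:C), at 1.5 µg per g, to induce the interferon-responsive Mx1 promoter that drives Cre, which removes exon 8. RNA was taken 1 week after poly(I:C) from 2 pools of 6 mice per genotype, and each pool gave 10 ng of RNA that was amplified and Cy3-labeled for 1 array. The sources differ on whether control mice had poly(I:C) or a sham treatment. A contribution of the interferon response to a difference between genotypes therefore cannot be told apart from that of *Meis1*. Mx1-Cre also acts outside hematopoietic cells, and whether any mouse gave cells to more than 1 pool was not analysed here.

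Stem cells repair DNA by routes that differ in the lesion they handle. Fanconi proteins unhook crosslinks between the strands, homologous recombination copies the intact sister chromatid to mend a broken one, and end joining ligates broken ends directly and is used by cells outside S phase. Mismatch repair corrects replication errors, and excision repair removes damaged bases or bulky adducts. The checkpoint kinases sense broken or stalled DNA and hold the cell cycle. HSCs that lack Fanconi or end-joining genes are known to be lost under stress or with age.

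Values are log2 of the background-subtracted signal minus the 75th percentile of the array, so a value of 0 is the level of that percentile. Between 49.2% and 57.4% of the spots were well above background, and the second Meis1-KO array was the dimmest. Across probes, its correlation with each other array was 0.891 to 0.916, and that among the others 0.956 to 0.967. Replicate 1 of each genotype was on slide 1 and replicate 2 on slide 2, and values are given below in that order. The *Meis1* probe A_52_P670612 read 0.25 and 0.22 in Meis1-KO and 1.02 and 1.45 in Meis1-WT, a difference of -0.997 (SE 0.44, adjusted p = 0.983 by limma). The *Meis1* probe A_52_P26195 was not above background on the second Meis1-KO array and was tested only because both Meis1-WT arrays were. Its fitted difference of -1.70 is therefore no measured size. The places of the 2 *Meis1* probes relative to the deleted exon were not analysed here. The 6 LSK markers (*Kit*, *Ly6a*, *Cd34*, *Gata2*, *Myb* and *Lmo2*) were above background on all 4 arrays, while 2 of 7 T lineage markers were bright enough to test and none of the 7 was above background on all 4 arrays.

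No repair gene met the study's criteria for a difference between genotypes, more than 2-fold with p under 0.01 before adjustment. By limma, 0 of 38 tested genes met them in either direction, where 0.726% of all tested genes were called lower and 0.149% higher in Meis1-KO, 0.876% in all. By limma, 0 of 38 repair genes had an unadjusted p under 0.05 (2.93% of all tested genes did), and every adjusted p was 0.983 or higher. With the slide as a replicate block, limma again called 0 of 38 genes (2.19% of all tested genes) and gave 0 an unadjusted p under 0.05 (6.01% of all tested genes). The methods' t-test also called 0 of 38 (0.17% of all tested genes) and gave 1 gene, *Xrcc5*, an unadjusted p under 0.05 (2.41% of all tested genes). With 2 pools against 2, an exact permutation test of a single gene cannot give a two-sided p below 0.333. Without the block, the p-values measure the spread between pools, slides and hybridizations together. With it, the spread between slides is taken out. In both fits limma draws each gene's spread toward that of all probes.

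The precision of the arrays sets what this count of 0 can say. The 95% confidence interval of a repair gene's difference reached 1.13 on the log2 scale to either side at the median gene, and from 1.02 to 2.25 over the 38 genes. All 38 intervals therefore included a 2-fold change in 1 direction or the other, and none lay wholly within 2-fold. In the plot of differences with their intervals, all 38 intervals cross the line of no difference.

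**Figure D1:**
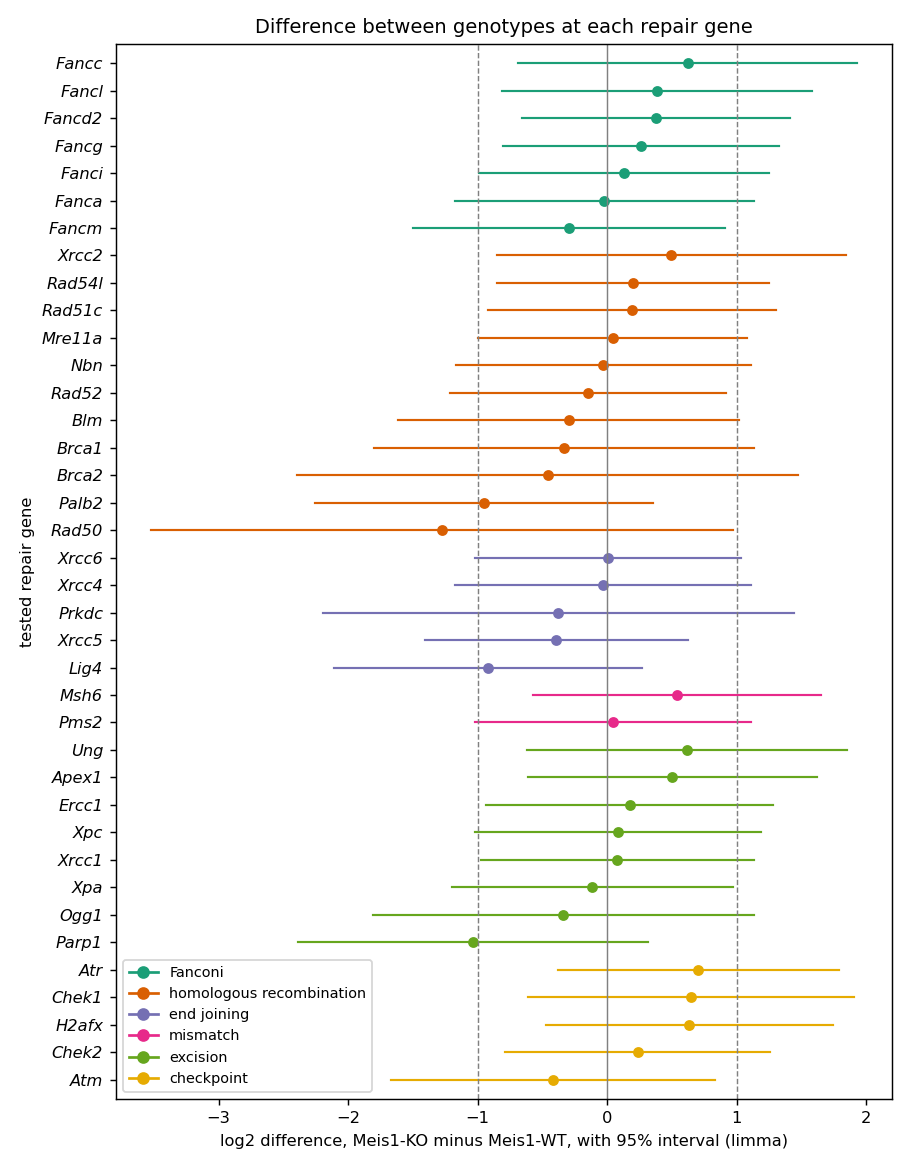
Log2 difference (Meis1-KO minus Meis1-WT) of each tested repair gene at its brightest probe on the x axis, 1 gene a row, colored by pathway. Points are differences, bars are 95% confidence intervals from limma (n = 2 arrays per genotype), and dashed lines mark a 2-fold change. Each of the 38 bars crosses 0. *Rad50* and *Rad51c* were not well above background on the second Meis1-KO array, so their differences are no measured size.

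As a set, the repair genes had no common direction. The difference was below 0 for 17 genes and above 0 for 21, against 40.0% lower and 60.0% higher among all tested genes. The median difference was 0.04 over the 38 repair genes and 0.13 over all tested genes. The members ranged from -1.27 at *Rad50* to 0.70 at *Atr*, and 2 of 38 differed by more than 2-fold (9.52% of all tested genes did), while 15 differed by less than 0.25. *Rad50* was not above background on the second Meis1-KO array, so its value is no measured size. Among the 36 genes above background on all 4 arrays, the lowest was *Parp1* at -1.03. It was the 1 of these over 2-fold (614 of all 12935 such genes).

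**Figure D2:**
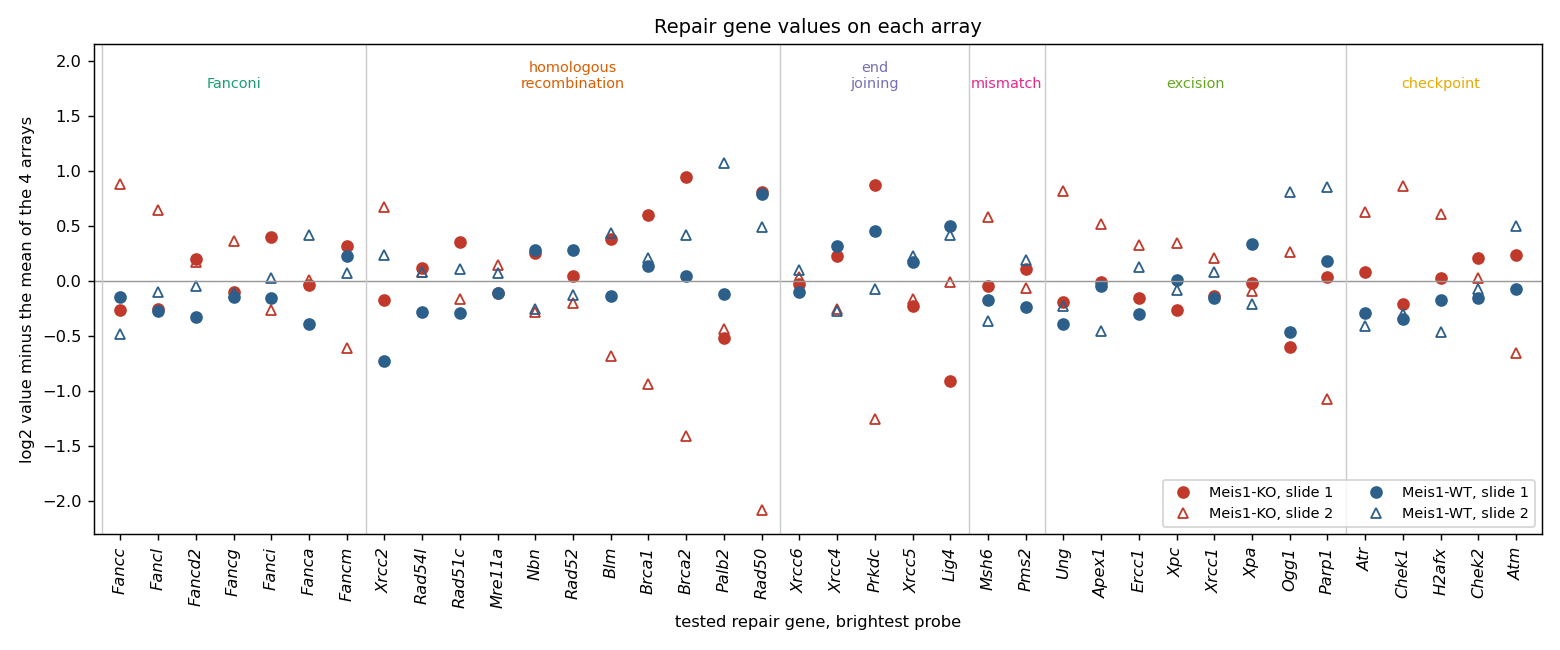
Log2 value of each tested repair gene on each of the 4 arrays, minus the mean of the 4, on the y axis, with genes on the x axis by pathway. Filled circles are slide 1, open triangles slide 2, red Meis1-KO and blue Meis1-WT. The second Meis1-KO array (red triangles) lies farthest from the mean at 22 of 38 genes (58.2% of all tested probes). *Rad50* and *Rad51c* were not well above background on that array.

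The second Meis1-KO array lay farthest out most often, at the repair genes as over all tested probes. Its pool and its hybridization cannot be told apart. This array was farthest from the mean of the 4 at 22 of 38 repair genes, compared with 5 genes for the first Meis1-KO array, 8 for the first Meis1-WT array and 3 for the second. Over all tested probes the second Meis1-KO array was farthest at 58.2%. The differences within slide 1 had an SD of 0.40 over the repair genes, and those within slide 2 an SD of 0.92, while all tested genes gave 0.66 and 1.07. The direction was lower on both slides for 7 genes (19.3% of all tested genes), higher on both for 14 (32.0%), and opposite for 17. Both Meis1-KO arrays lay below both Meis1-WT arrays for 4 genes (9.82% of all tested genes), namely *Palb2*, *Xrcc5*, *Lig4* and *Parp1*. Both lay above for 9 genes (16.6%), namely *Fancd2*, *Fancg*, *Msh6*, *Apex1*, *Ung*, *Atr*, *Chek1*, *Chek2* and *H2afx*.

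Leaving out the second Meis1-KO array gave 14 genes below 0 and 24 above, a median of 0.11, and again no call. Leaving out the first Meis1-KO array instead, so that the second stood alone, gave 2 of 38 calls, both lower, where 6.4% of all tested genes were called lower in the same fit. These were *Rad50* and *Brca2*, the second at -1.64 (adjusted p = 0.0950 by limma, 0.0950 to 1.00 over the alternatives). When the second Meis1-KO array was left out instead, *Rad50* stood at 0.17 and *Brca2* at 0.71, so that 1 array decides both. *Rad50* was not above background on that array and had passed the filter on dim probes through Meis1-WT, which with that array alone fixed its side of 0, so its call is no test and its fitted -2.72 no measured size. With that array held at its lowest signal above background, *Rad50* was 4.97-fold lower there than the Meis1-WT mean. Dim probes of *Rad51c* and *Rad52* read above that level on the same array, so this is no strict bound.

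**Figure D3:**
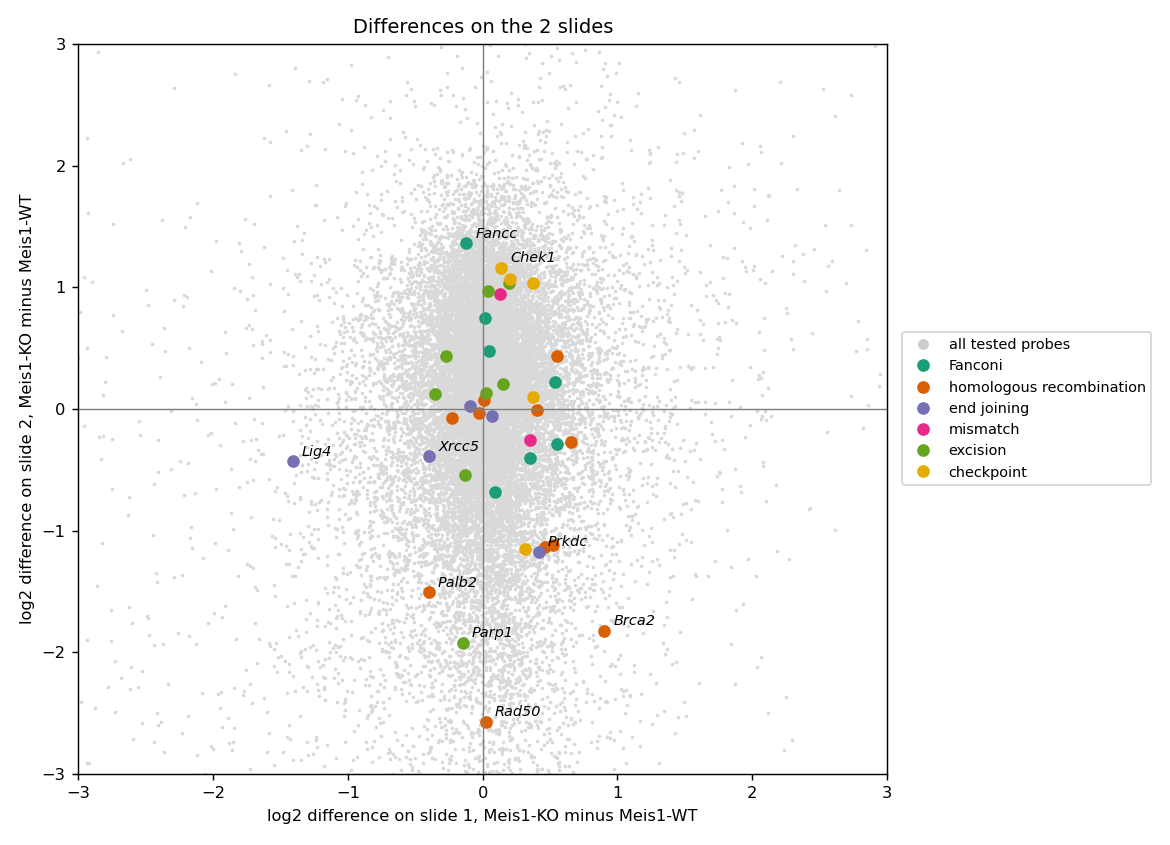
Log2 difference on slide 1 (x axis) against that on slide 2 (y axis), Meis1-KO minus Meis1-WT, for the 38 tested repair genes (colored by pathway) over all tested probes (gray; those beyond 3 on either axis are not drawn). The repair genes spread further along slide 2 (SD 0.92) than along slide 1 (SD 0.40), and 17 of 38 have opposite signs on the slides. *Rad50* and *Rad51c* were not well above background on the Meis1-KO array of slide 2, so their differences there are no measured size.

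No Fanconi anemia gene met the criteria. Of 8 genes, 7 were tested, 2 below 0 and 5 above, with a median of 0.26 that ranged from -0.30 at *Fancm* to 0.62 at *Fancc*. The median ran from -0.12, when arrays were not scaled to each other, to 0.39 with the mean over a gene's probes, and was 0.047 without the second Meis1-KO array. Leaving out the scaling also moved the median of all probes from 0.082 to -0.30. *Fancc*, a subunit of the Fanconi core complex, read -1.28 and -0.14 in Meis1-KO and -1.16 and -1.50 in Meis1-WT. The second Meis1-KO array alone was high, and the difference of 0.62 (SE 0.54, 95% interval -0.69 to 1.93, n = 2 arrays per genotype) had opposite signs on the slides and was 0.047 to 1.19 over the alternatives. *Fancl*, the ubiquitin ligase of the core complex, read 1.29 and 2.19 in Meis1-KO and 1.27 and 1.44 in Meis1-WT. Its genotypes overlapped and its difference was 0.38 (SE 0.49, 95% interval -0.81 to 1.58), with -0.067 to 0.83 over the alternatives. *Fancd2*, which the core complex ubiquitinates at a crosslink, read 1.28 and 1.25 in Meis1-KO and 0.74 and 1.03 in Meis1-WT. The Meis1-KO arrays lay above the Meis1-WT arrays on both slides, by 0.38 on average (SE 0.43, 95% interval -0.66 to 1.41), a difference that was -0.0015 without scaling. *Fanca* and *Fanci*, a subunit of the core complex and the partner of *Fancd2*, differed by -0.023 and 0.13, and *Fancm*, the translocase that brings the complex to DNA, by -0.30.

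*Fancg*, another subunit of the core complex, had 3 tested probes, of which 1 stood apart. Its brightest probe gave 0.26 (SE 0.44). A probe at chr4:43022874-43022933 (mm9, minus strand) read -1.39 and -2.11 in Meis1-KO and -3.19 and -3.06 in Meis1-WT, whereas a probe at chr4:43016751-43017436 gave -2.56 and -2.09 in Meis1-KO and -2.63 and -2.40 in Meis1-WT. The sequences are shown because the first is the single probe of the 61 tested repair probes that had an unadjusted p under 0.05 by limma. The second is placed over 686 bases of the genome, so its placement holds a gap.

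*Fancg* probe A_52_P47829: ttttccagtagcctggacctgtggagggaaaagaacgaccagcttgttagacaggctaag

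*Fancg* probe A_52_P165521: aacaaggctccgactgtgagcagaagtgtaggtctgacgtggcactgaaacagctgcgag

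At the first of these, the Meis1-KO arrays lay above the Meis1-WT arrays on both slides, by 1.80 and 0.95. The difference was 1.37 (SE 0.47, adjusted p = 0.983 by limma, and 0.628 with the slide as a block). At the second the difference was 0.19 (SE 0.44). The 3 probes lie in different parts of the gene, and the exons they fall in were not analysed here.

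Homologous recombination genes were on balance lower on slide 2 and higher on slide 1. Of 12 genes, 11 were tested, 7 below 0 and 4 above, with a median of -0.15, which was 0.40 on slide 1 and -0.27 on slide 2. Without the second Meis1-KO array the median was 0.22, and without scaling -0.53. *Rad50*, which with *Mre11a* and *Nbn* forms the complex that first binds a broken end, read -0.77 and -3.65 in Meis1-KO and -0.79 and -1.08 in Meis1-WT. The second Meis1-KO array was not above background at *Rad50* and was alone in being low, so the difference of -1.27 (SE 0.93, 95% interval -3.52 to 0.97) rests on it. With that array held at the lowest signal above background the difference was -1.07, and with normexp background correction it was -0.092. *Mre11a* and *Nbn*, the other members of that complex, differed by 0.04 and -0.03.

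*Palb2*, which ties *Brca1* to *Brca2* at the break, had both Meis1-KO arrays below both Meis1-WT arrays. It read -3.10 and -3.02 in Meis1-KO and -2.70 and -1.51 in Meis1-WT. The difference was -0.95 (SE 0.54, 95% interval -2.26 to 0.35, adjusted p = 0.983 by limma), of which the slides gave -0.40 and -1.51, and it was -0.36 without the second Meis1-WT array and -0.041 with normexp background correction. The probe behind these values is placed on mm9 at chr7:129256829-129257830, on the minus strand, and since its 60 bases span 1002 bases of the genome its placement holds a gap.

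*Palb2* probe A_52_P116473: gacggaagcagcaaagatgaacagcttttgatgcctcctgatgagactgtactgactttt

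*Xrcc2*, which acts in the search for the intact copy, read -1.92 and -1.08 in Meis1-KO and -2.47 and -1.51 in Meis1-WT. Each Meis1-KO array was above the Meis1-WT array of its own slide while the genotypes overlapped, with a difference of 0.49 (SE 0.55, 95% interval -0.85 to 1.84). Leaving out 1 array moved it to between 0.015, without the first Meis1-WT array, and 0.97. Its 4 tested probes did not share a sign. *Brca1* and *Brca2*, which act at successive steps of the repair of a broken end, read opposite ways on the slides, at 0.47 and -1.14 for *Brca1* and at 0.90 and -1.82 for *Brca2*. The helicase gene *Blm* followed the same order, at 0.52 and -1.12. *Rad51c*, *Rad52* and *Rad54l* differed by 0.19, -0.15 and 0.20. *Rad51c*, dim on the second Meis1-KO array, was 0.65 higher on slide 1 and 0.27 lower on slide 2.

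End joining genes mostly lay below 0. All 5 were tested, 4 of them below 0 and *Xrcc6* at 0.0034, with a median of -0.38. Without the second Meis1-KO array the median was -0.03, without the first Meis1-WT array -0.11, with normexp background correction -0.069, and without scaling -0.76. *Lig4*, the ligase that seals the joined ends, had the smallest unadjusted p of the 38 genes by limma without the block, 0.108 (adjusted p = 0.983). It read -2.60 and -1.70 in Meis1-KO and -1.19 and -1.27 in Meis1-WT. Both Meis1-KO arrays were below both Meis1-WT arrays, and the difference of -0.92 (SE 0.49, 95% interval -2.11 to 0.27) was larger on slide 1 (-1.41) than on slide 2 (-0.43). It was -0.47 without the first Meis1-KO array and -0.23 with normexp background correction. The *Lig4* probe lies on mm9 at chr8:9971496-9971555, on the minus strand, and is placed without a gap.

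*Lig4* probe A_51_P362399: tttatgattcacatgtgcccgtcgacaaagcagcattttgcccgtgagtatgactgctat

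*Xrcc5*, which encodes Ku80, was below 0 by nearly the same amount on both slides. It read 0.17 and 0.24 in Meis1-KO and 0.57 and 0.63 in Meis1-WT, a difference of -0.40 on slide 1 and -0.39 on slide 2. The replicates differed little (SD 0.05 in Meis1-KO and 0.04 in Meis1-WT, n = 2 each), the genotypes did not overlap, and the difference stayed between -0.43 and -0.36 with any 1 array left out, while it was -0.77 without scaling and -0.31 with median scaling. Limma, which draws each gene's spread toward that of all probes, gave it an SE of 0.42 and a 95% interval from -1.41 to 0.62. The methods' t-test, which uses this small spread alone, put its unadjusted p under 0.05 and not its adjusted p. *Xrcc6*, which encodes Ku70, the partner of Ku80, read -0.41 and -0.34 in Meis1-KO and -0.48 and -0.28 in Meis1-WT, and differed by 0.0034. *Prkdc*, the kinase that Ku recruits, read 0.27 and -1.85 in Meis1-KO and -0.14 and -0.67 in Meis1-WT, with a difference of -0.38 (SE 0.75, 95% interval -2.20 to 1.44) opposite signs on the slides, and -1.44 to 0.68 over the alternatives. *Xrcc4*, the partner of *Lig4*, differed by -0.04.

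Mismatch repair was represented by a recognition and a downstream gene. *Msh6*, which recognizes a mispaired base, read 3.85 and 4.48 in Meis1-KO and 3.72 and 3.53 in Meis1-WT. The genotypes did not overlap, and the difference of 0.54 (SE 0.46, 95% interval -0.58 to 1.65) came mostly from slide 2, which gave 0.94 against 0.13 on slide 1, and it was 0.16 to 0.85 over the alternatives. *Pms2*, which acts after recognition, read 0.09 and -0.09 in Meis1-KO and -0.26 and 0.17 in Meis1-WT. It differed by 0.05 (SE 0.44, 95% interval -1.02 to 1.11), with opposite signs on the slides and -0.33 without scaling between arrays.

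Excision repair genes went both ways. Of 9 genes, 8 were tested, 3 below 0 and 5 above, with a median of 0.08. The median ran from -0.30 without scaling to 0.32 without the first Meis1-KO array, and was -0.087 without the second, 0.24 without the second Meis1-WT array and -0.020 with the mean over a gene's probes. *Parp1*, which binds nicked DNA and marks it with poly(ADP-ribose), read 0.99 and -0.12 in Meis1-KO and 1.13 and 1.81 in Meis1-WT. Both Meis1-KO arrays were below both Meis1-WT arrays, by 0.15 on slide 1 and 1.92 on slide 2, and the difference was -1.03 (SE 0.56, 95% interval -2.39 to 0.32, adjusted p = 0.983 by limma). It was -0.48 when the second Meis1-KO array was left out and -0.89 with normexp background correction.

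The second *Parp1* probe gave nearly the same result. It read 0.88 and -0.20 in Meis1-KO and 1.12 and 1.64 in Meis1-WT, a difference of -1.04 (SE 0.54). The pair is not independent, because 40 of the 60 bases are shared. The shared bases are in capitals below. The probes are placed on mm9, plus strand, at chr1:182530321-182530619 and chr1:182530341-182530639, each over 299 bases and so with a gap.

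*Parp1* probe A_51_P314273: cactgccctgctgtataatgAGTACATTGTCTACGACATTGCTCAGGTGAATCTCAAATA

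*Parp1* probe A_51_P314277: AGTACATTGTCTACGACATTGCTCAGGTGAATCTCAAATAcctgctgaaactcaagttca

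The base excision genes *Ung* and *Apex1* were on the other side of 0. *Ung*, the glycosylase that removes uracil from DNA, read 5.01 and 6.02 in Meis1-KO and 4.82 and 4.98 in Meis1-WT. The genotypes did not overlap, and the difference of 0.62 (SE 0.51, 95% interval -0.62 to 1.85) was 0.19 on slide 1 and 1.04 on slide 2, and 0.11 to 1.12 over the alternatives. *Apex1*, the endonuclease that cuts the strand at the site a glycosylase leaves, read 3.80 and 4.33 in Meis1-KO and 3.76 and 3.36 in Meis1-WT. Its difference was 0.50 (SE 0.46, 95% interval -0.61 to 1.61), again without overlap and with the larger part on slide 2 (0.97 against 0.038) and 0.12 to 0.77 over the alternatives. *Ogg1*, the glycosylase for oxidized guanine, differed by -0.34, and its pair of probes also shared 40 bases. *Xrcc1*, the scaffold of base excision and single-strand break repair, differed by 0.08.

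Of the nucleotide excision genes, *Ercc1*, *Xpa* and *Xpc* differed by 0.17, -0.12 and 0.08. *Xpc*, which finds bulky adducts, had a second probe that was not well above background on either Meis1-KO array, where it read -4.03 and -5.05, and was on both Meis1-WT arrays, where it read -3.67 and -2.92. Each Meis1-KO array was held at the higher of the probe's own value and the lowest signal above background. At that probe *Xpc* was then 1.27-fold lower in Meis1-KO. This is no strict bound, because dim probes of *Rad51c* and *Rad52* read above that lowest signal on the second Meis1-KO array. The *Xpc* probe passed the filter on dim probes only through Meis1-WT, which fixed the side of 0 on which it could lie. Its difference is therefore no test and no measured size.

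Checkpoint genes were the pathway with the highest median difference. All 5 were tested, 4 above 0 and *Atm* below, with a median of 0.63, and both Meis1-KO arrays lay above both Meis1-WT arrays for the 4 (16.6% of all tested genes). This holds at the brightest probes. The other *Chek1* probe gave 0.37 with overlap, and the other *Chek2* probe -0.11, with opposite signs on the slides. The median was 0.31 on slide 1 and 1.03 on slide 2. It was 0.92 without the first Meis1-KO array, 0.33 without the second, 0.25 without scaling, 0.41 with normexp background correction and 0.17 with the mean over a gene's probes, where the Fanconi genes at 0.39 and the mismatch repair genes at 0.29 stood higher. *Atr*, the kinase that answers stalled replication forks, had the highest difference of the 38 genes. It read 0.50 and 1.05 in Meis1-KO and 0.13 and 0.01 in Meis1-WT, which gave 0.70 (SE 0.45, 95% interval -0.38 to 1.79). The other *Atr* probes gave 0.43 and -0.63, and the mean of the 3 was 0.17. The probe at -0.63 was not well above background on the second Meis1-KO array, so neither its value nor that mean, and with it the checkpoint median over probes, is a measured size. *Chek1*, the kinase downstream of *Atr*, read 3.79 and 4.86 in Meis1-KO and 3.66 and 3.70 in Meis1-WT. The difference of 0.65 (SE 0.52, 95% interval -0.61 to 1.90) came from slide 2 for the most part, since it was 0.11 without the second Meis1-KO array.

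*H2afx*, the histone variant phosphorylated beside a break, read 3.77 and 4.34 in Meis1-KO and 3.57 and 3.28 in Meis1-WT, and differed by 0.63 (SE 0.46, 95% interval -0.48 to 1.74). This was 0.20 on slide 1 and 1.06 on slide 2, and 0.35 without the second Meis1-KO array. *Chek2*, downstream of *Atm*, differed by 0.23 and was -0.14 without scaling. *Atm*, the kinase that answers broken ends, read 1.65 and 0.77 in Meis1-KO and 1.34 and 1.92 in Meis1-WT, so that it was higher on slide 1 by 0.31 and lower on slide 2 by 1.15.

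The arrays also differed in their S phase and mitosis genes. Of 20 such genes, 19 were on the array and all 19 were above background on all 4 arrays, 16 of them above 0 and 3 below in Meis1-KO, with a median of 0.36. None met the criteria. Their summed level, on a linear scale where the 75th percentile of each array is 1, was 1079 and 1648 in Meis1-KO and 1002 and 986 in Meis1-WT. The second Meis1-KO array was the highest of the 4 at 16 of these 19 genes and the lowest at 2, *Mki67* and *Top2a*. Among the 38 repair genes it was the highest at 14 and the lowest at 11, and among all tested genes the highest at 48.7% and the lowest at 28.4%. The part of cell division in these differences was not tested. In bulk RNA of a sorted population, fewer cells of a type and less RNA per cell cannot be told apart.

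Markers of other cell types also moved between the arrays. The summed level of 8 erythroid markers, of which 5 were above background on all 4 arrays, was 99.5 and 245 in Meis1-KO and 88.2 and 24.3 in Meis1-WT. Nearly all of it was the globin gene *Hbb-b1*, and without it the sum was 5.91 and 1.75 against 9.22 and 2.32. Of the 6 erythroid markers tested, 4 were below 0 and 2 above in Meis1-KO, with a median of -0.18. The summed level of 9 B lineage markers, 4 of them above background on all 4 arrays and 2 on none, was 12.2 and 8.62 against 19.1 and 7.86. Most of it was *Vpreb1*, and without it the sum was 1.98 and 1.90 against 3.47 and 1.92. All 5 B lineage markers tested were below 0 in Meis1-KO, with a median of -0.62 and 2 of opposite signs on the slides. That of 5 plasma cell markers, 3 above background on all 4 arrays, was 4.93 and 25.7 against 26.4 and 13.2. Here *Igj* gave the most, and without it the sum was 2.33 and 5.41 against 7.10 and 3.37. All 4 plasma cell markers tested were below 0, with a median of -1.30 and 3 of opposite signs on the slides. Of 7 T lineage markers 2 were above background on none of the arrays, and the sum was at most 0.93. The 2 tested, *Lck* and *Cd8a*, were below 0, but neither was above background on all 4 arrays. The 10 granulocyte and monocyte markers on the array, 7 above background on all 4 arrays, summed to 170 and 117 against 182 and 60.5, and of the 8 tested 5 were below 0 and 3 above in Meis1-KO, with a median of -0.20. They ran from *Elane* at -1.57, which met the criteria (adjusted p = 0.983 by limma), to *Ctsg* at 0.92. The 7 megakaryocyte markers, above background on all 4 arrays, summed to 46.1 and 34.1 against 38.5 and 59.9, and 3 were below 0 and 4 above, from *Itga2b* at -1.65 to *Ppbp* at 0.22, with a median of 0.03. Of 10 interferon-stimulated genes 9 were tested, 6 below 0 and 3 above in Meis1-KO with none meeting the criteria, and their summed level was 8.55 and 8.28 against 7.72 and 10.6. Their part in the values of the repair genes was not tested.

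Where a gene had more than 1 tested probe, the probes were compared within the gene. This was so for 18 repair genes, of which 11 had all probes on the same side of 0 and 7 did not. Of the 61 tested repair probes, 7 differed by more than 2-fold (10.2% of all tested probes). On the second Meis1-KO array 7 of the 61, those of *Rad50* and *Rad51c* and 1 each of *Atr*, *Brca2*, *Fancm*, *Rad52* and *Xpc*, were not well above background, and these had passed the filter through Meis1-WT. They made up 4 of the 7 over 2-fold, and the other 3 were those of *Fancg* and *Parp1*. By limma, 0 of 61 met the criteria (0.736% of all tested probes) and 1 had an unadjusted p under 0.05 (2.81%). With the slide as a block, 0 of 61 met them (1.99%) and 2 had an unadjusted p under 0.05 (6.07%), 1 of *Fancg* and the dim *Xpc* probe. The *Xpc* probe passed the filter only through Meis1-WT, so its p is no test. At *Brca1* the brightest probe gave -0.34 and the other 0.36, and at *Atm* the values were -0.42 and -0.70. At *Brca2* they were -0.46 and -1.09, but the second was 0.0018 with the dim array held at its lowest signal above background.

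**Figure D4:**
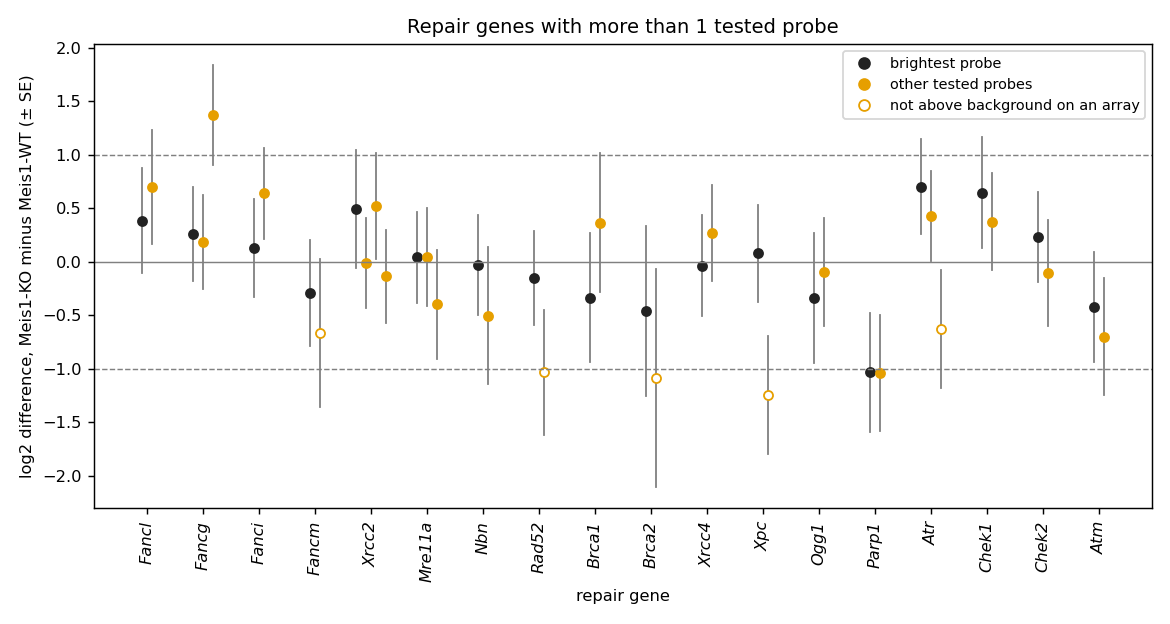
Log2 difference (Meis1-KO minus Meis1-WT, y axis) at every tested probe of the 18 repair genes with more than 1 tested probe (x axis). Black points are the brightest probe, orange points the others, bars ± 1 SE from limma, and dashed lines a 2-fold change. Open points are probes not well above background on at least 1 Meis1-KO array, where the plotted value is no measured size, and among the filled points the *Fancg* probe at 1.37 lies farthest from 0.

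Motifs in the promoters had no part in choosing the genes. RefSeq promoters (GRCm38.p6, from 250 bases before to 50 bases after the start) were found for 34 of the 41 genes. The letters GCGGGAA or TTCCCGC on the other strand, a form of the E2F site, were in 13 of 34 (38.2%), against 5.29% of 27025 genes with a promoter and 9.74% of the 8214 that were also tested. The 13 were *Atm*, *Bard1*, *Brca2*, *Chek1*, *Chek2*, *Fancg*, *Fanci*, *Fancm*, *Msh6*, *Rad51c*, *Rad52*, *Xrcc4* and *Xrcc6*. E2F factors drive genes at the entry into S phase. Examples that lie before the start are shown with the motif in capitals, *Chek2* at chr5:110839814-110839854 and *Rad52* at chr6:119902549-119902589 (plus strand), and *Fancg* at chr4:43010329-43010369 and *Xrcc4* at chr13:90089685-90089725 (minus strand), each read along the gene.

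*Chek2* promoter: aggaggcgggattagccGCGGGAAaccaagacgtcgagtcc

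*Rad52* promoter: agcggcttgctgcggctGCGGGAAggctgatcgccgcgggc

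*Fancg* promoter: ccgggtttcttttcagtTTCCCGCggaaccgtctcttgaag

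*Xrcc4* promoter: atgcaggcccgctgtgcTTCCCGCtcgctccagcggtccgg

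Whether the motif goes with the difference between genotypes was not tested. The 12 tested genes that had it gave a median of 0.07, with 7 above 0, and the 19 tested genes with a promoter that lacked it gave 0.04, with 10 above 0. The other E2F form searched, TTTGGCGC or GCGCCAAA, was in 0 of 34 (0.585% of all genes). The letters TTTGAA or TTCAAA, a form of the cell cycle homology region, were in 1 of 34, *Bard1* (20.2% of all genes). These are matches of letters and not sites shown to be bound.

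The Meis hexamer TGACAG, or CTGTCA on the other strand, was in 6 of the 34 promoters (17.6%), against 21.6% of all genes. The 6 were *Fancl*, *Palb2*, *Parp1*, *Rad51c*, *Xrcc1* and *Xrcc6*. *Palb2* and *Parp1* are among the 4 genes whose Meis1-KO arrays both lay below the Meis1-WT arrays, and their windows are given with the hexamer in capitals, at chr7:122133083-122133122 (minus strand) and chr1:180568730-180568769 (plus strand) on GRCm38.p6. *Lig4* and *Xrcc5* are not among the 6. The median difference was 0.04 for the 6 genes with the hexamer, of which 4 were above 0. It was 0.04 for the 25 without, of which 13 were above 0.

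*Palb2* promoter: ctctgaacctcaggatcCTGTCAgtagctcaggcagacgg

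*Parp1* promoter: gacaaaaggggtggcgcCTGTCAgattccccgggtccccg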

How the data were processed

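RNA of LSK cells was measured on 4 1-color arrays of 60-base probes, 1 per pool, grouped from the sample titles. The authors deposited spot intensities from Feature Extraction (9.5.3.1 per the file headers, 9.1 in the submitters' processing notes), background-subtracted within each array, not scaled between arrays, with surrogate values at 25.2% to 33.2% of spots. The deposited table of the series holds the same intensities within 1% at all 45018 features. Surrogate values can compress differences at dim probes. Positions are those of the array's annotation on mm9.

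Spots of controls and outliers were dropped, those of a probe averaged, and the 75th percentile of the array subtracted on the log2 scale. Testing required 1 genotype or both to have the probe well above background on each of its arrays (22007 of 41174). Genotypes were compared with lmFit and eBayes (limma 3.58.1, R 4.3.3) on the whole table, with genotype as the only term, and Benjamini-Hochberg adjustment ran over all tested probes. The fit was tested on simulated data. The methods give the criteria, p under 0.01 and more than 2-fold. Full statistics are given for the 3 tested genes of each pathway with the largest absolute difference and for genes meeting the criteria, and counts for the rest. The genes and lists were chosen with earlier results of these data known.

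Replicate numbers mark a shared slide, per the file headers. Deviations of same-slide arrays correlated at 0.266, so the slide was fitted as a replicate block as an alternative. The others were median and quantile scaling, normexp (offset 50), the deposited table, no filter, a filter on all 4 arrays, outliers kept, the methods' t-test, an intensity trend, the mean over probes, each array left out, and no scaling. A genotype left with 1 array takes its spread from the other. Promoters were matched by gene to RefSeq (GRCm38.p6). Exons and untranslated regions were not used here. Values of a few other genes are not reported here.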

Additional observations from a re-analysis of the deposited data

How the results depend on the processing

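The count of repair genes meeting the criteria was 0 in both directions under all alternatives that kept the 4 arrays, including the replicate block, which pairs arrays of a slide and gave 0 lower and 0 higher. With 1 array left out, the count lower ranged from 0 to 2 (2 without Meis1-KO replicate 1, of which *Rad50* was not above background on the array left) and the count higher stayed 0. Over all 22007 tested probes, leaving out that array moved the counts from 132 lower and 30 higher to 1705 and 510. The median difference of 0.04 ranged from 0.0035 to 0.21 with 1 array left out (0.21 without Meis1-WT replicate 2) and was -0.33 with no scaling between arrays, an alternative chosen after seeing the data, in which 29 genes were below 0 and 9 above. Single genes changed sign as follows. With no scaling, *Fancd2* was -0.0015, *Fancg* -0.12, *Fanci* -0.25, *Rad51c* -0.19, *Rad54l* -0.18, *Mre11a* -0.34, *Xrcc6* -0.37, *Pms2* -0.33, *Ercc1* -0.20, *Xpc* -0.30, *Xrcc1* -0.30 and *Chek2* -0.14. With median scaling, *Fanca* was 0.063, *Nbn* 0.056 and *Xrcc4* 0.050. With quantile normalization, *Mre11a* was -0.073, *Nbn* 0.0090 and *Xrcc1* -0.038. With normexp, *Fanca* was 0.093, *Mre11a* -0.10, *Nbn* 0.030, *Xpa* 0.026, *Xrcc1* -0.077 and *Ogg1* 0.054. With the mean over probes, *Brca1* was 0.013, *Mre11a* -0.10, *Xrcc4* 0.12 and *Xpc* -0.58, the last through a probe not above background in Meis1-KO. The causes were not tested. With 1 array left out, 22 genes changed sign: *Atm* ranged from -0.86 to 0.024, *Blm* from -0.83 to 0.23, *Brca1* from -1.10 to 0.43, *Brca2* from -1.64 to 0.71, *Ercc1* from -0.065 to 0.41, *Fanca* from -0.42 to 0.38, *Fanci* from -0.20 to 0.46, *Fancl* from -0.067 to 0.83, *Fancm* from -0.76 to 0.17, *Mre11a* from -0.085 to 0.17, *Nbn* from -0.30 to 0.24, *Ogg1* from -0.97 to 0.30, *Pms2* from -0.17 to 0.26, *Prkdc* from -1.44 to 0.68, *Rad50* from -2.72 to 0.17, *Rad51c* from -0.069 to 0.45, *Rad52* from -0.35 to 0.050, *Xpa* from -0.39 to 0.16, *Xpc* from -0.23 to 0.39, *Xrcc1* from -0.094 to 0.25, *Xrcc4* from -0.33 to 0.26 and *Xrcc6* from -0.094 to 0.10. The replicate block changed no call of a repair gene, and it raised the calls over all tested genes from 129 to 322. The number of arrays and, at dim probes, the signal over background limit these values.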

Other observations

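Other repair genes, of the same pathways but not among the 41, were counted from a separate list. Of 77 genes, 75 were on the array and 69 were tested, 25 below 0 and 44 above in Meis1-KO, with a median of 0.10 beside 0.13 for all tested genes. By limma, 0 of 69 met the criteria and 0 had an unadjusted p under 0.05, and with the slide as a block 0 met the criteria. Both Meis1-KO arrays lay below both Meis1-WT arrays for 6 genes (9.82% of all tested genes) and above for 14 (16.6%). The following were chosen after their values were seen. *Ercc6*, the gene of transcription-coupled repair, read -1.60 and -4.39 in Meis1-KO and -1.75 and -1.13 in Meis1-WT. The second Meis1-KO array alone was low and was not above background, so the size is not measured. With that array held at the lowest signal above background the difference was -0.99. The highest difference was at *Fancb*, a subunit of the Fanconi core complex, which read -1.92 and -0.04 in Meis1-KO and -1.95 and -2.18 in Meis1-WT, so that the same array alone was high. *Mlh3*, a mismatch repair gene, differed alike on both slides, by 0.68 and 0.81. It read -0.14 and -0.44 in Meis1-KO and -0.81 and -1.25 in Meis1-WT, with no overlap and a difference of 0.75 (SE 0.44).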
